A study of Mus musculus with 4 samples.

Results

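Corticotropin-releasing hormone (Crh), its binding protein (Crhbp) and its receptors (Crhr1 and Crhr2) were followed through the cell classes of the mouse BNST (bed nucleus of the stria terminalis), a nucleus of the extended amygdala in the forebrain. The 4 genes were taken by name from tables of 20136 listed genes, and each of the 4 was present in every library. The data were 4 Drop-seq libraries, a droplet method that tags the RNA of single cells with a cell barcode and a unique molecular identifier (UMI). Every library came from tissue punches of the BNST of male wildtype C57BL/6J mice, with 6 animals pooled in each, so that there were no treatment groups and the single animals cannot be told apart. All libraries were of the same kind. In the tests on summed counts below, differences are weighed against a spread between the 4 pools that is estimated in part over all genes. A small p-value there can therefore go with libraries that disagree for the gene itself.

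Crh is made as a precursor that is cut to a short amidated neuropeptide, best known for starting the hormonal stress response from the hypothalamus and made in the BNST by local neurons. Crhr1 and Crhr2 are related receptors that couple mainly to the stimulatory G protein and raise cyclic AMP. Crhbp is a secreted glycoprotein that binds the peptide and the related urocortin and limits how much of it reaches the receptors.

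Of 10200 barcodes, 4181 cells were kept, with a median of 1483.5 to 2504 UMIs by library. Cells were sorted into classes by their UMIs of marker genes, which gave 2506 neurons and 1494 non-neuronal cells (844 oligodendrocytes, 406 astrocytes, 150 oligodendrocyte precursors, 47 endothelial, 29 mural, 9 microglial and 9 fibroblast cells). A further 181 cells entered no class. By transmitter genes, 2294 neurons were GABAergic (387 to 731 by library), 100 were glutamatergic and 112 had no call. Snap25, a synaptic protein gene of the neuron list, stood at 1720 CPM (counts per 1000000 UMIs) in gated neurons and 33.6 CPM in other gated cells. Mog, a myelin gene of the oligodendrocyte list, stood at 2201 CPM in oligodendrocytes and 1.45 CPM in other gated cells. Both genes helped to sort the cells, so these values describe the classes and are no independent check of them. Between 1 and 7 barcodes were shared by any pair of libraries, and 0 barcodes were kept in more than 1 library. The kept cells held 2439 UMIs of Crh, 332 of Crhbp, 69 of Crhr1 and 45 of Crhr2.

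The Crh gene lies on chromosome 3 at chr3:19693401-19695396 on the minus strand (GRCm38, GENCODE vM21 annotation), and no annotated gene overlaps it. Its coding sequence has 187 codons, and the last 45 of the reading frame, codons 143 to 187, are shown because they hold the hormone itself. The capitals mark the codons of the arginine pair at which the precursor is cut, and those of the glycine and lysine that follow the 41 codons of the mature peptide. The stretch is in 1 exon, at chr3:19693916-19694050.
Crh: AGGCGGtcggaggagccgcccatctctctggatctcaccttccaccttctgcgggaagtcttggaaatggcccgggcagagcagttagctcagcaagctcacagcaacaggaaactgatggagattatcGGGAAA

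Crhbp is on chromosome 13 (chr13:95431371-95444924, minus strand), Crhr1 on chromosome 11 (chr11:104132855-104175523, plus strand) and Crhr2 on chromosome 6 (chr6:55090049-55133016, minus strand), and none of them overlaps another annotated gene. The receptors are paralogs, so their reads could be confused where the sequence is shared. The longest run that their coding sequences have in common is 24 bases, shown in capitals within 84 coding bases of each. It is shorter than the transcript read of 50 cycles. Within the last 500 bases of the transcripts, the end that Drop-seq reads, the longest shared run was 9 bases. Both stretches span an intron, and run from chr11:104173665-104173906 and chr6:55092537-55093017.
Crhr1: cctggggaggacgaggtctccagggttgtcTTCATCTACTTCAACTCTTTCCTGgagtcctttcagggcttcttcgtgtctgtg
Crhr2: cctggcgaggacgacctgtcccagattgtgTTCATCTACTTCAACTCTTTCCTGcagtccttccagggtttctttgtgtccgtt

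By UMIs, all 4 genes were found almost entirely in neurons, which also held most UMIs of all genes. GABAergic neurons alone had 9027783 of the 12037744 UMIs in kept cells. Crh, the ligand, stood at 209, 267, 324 and 262 CPM in the neurons of libraries 1 to 4 and at 2.85, 0, 3.78 and 15.1 CPM in their non-neuronal cells. The lowest neuronal value was thus above the highest non-neuronal one. Of the Crh UMIs in these classes 99.6% were in neurons, where 309 of 2506 cells (12.3%) had at least 1 UMI. The non-neuronal cells held 10 UMIs in 9 of 1494 cells, 5 of them in oligodendrocytes, 3 in astrocytes, 1 in an endothelial and 1 in a mural cell, and precursors had 0. Crh was 5.45 higher in neurons on the log2 scale (SE 0.25; edgeR quasi-likelihood test on sums per library, Benjamini-Hochberg adjusted p = 3.27e-24; higher in 4 of 4 libraries). Without library 4 the difference was 6.47. In this broad comparison 70.5% of all 10193 tested genes passed an adjusted p of 0.05.

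Crhbp, the binding protein, had 34.7, 30.2, 43.0 and 30.8 CPM in neurons, and 0 UMIs in all 1494 non-neuronal cells. Against the level of 3 counts over the whole non-neuronal group, its pooled level in neurons was at least 23.8-fold higher. By the 95% Poisson limit on 0 counts it was at least 19.3-fold higher. Crhbp passed the test as well (adjusted p = 1.42e-11 in edgeR). A UMI of it was found in 138 neurons (5.51%; exact 95% interval 4.65 to 6.47%).

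The receptors were scarce. Crhr1 had 6.65, 8.42, 6.61 and 6.64 CPM in neurons, a narrow range over the libraries, with 68 UMIs in 65 cells against 1 UMI in an astrocyte. Crhr2 had 3.94, 4.95, 7.27 and 3.32 CPM, with 44 UMIs in 37 cells against 1 UMI in a mural cell. The mural class had 29 cells, too few to show how its Crhr2 level compares with that of neurons. The pooled ratio of neurons to non-neuronal cells was 14.6 for Crhr1 (95% interval 2.62 to 577) and 9.45 for Crhr2 (1.70 to 373), where intervals here and below cover counting error only. Neither receptor passed the filter on low counts that came before the tests between classes. Without that filter, edgeR placed Crhr1 at 3.55 (SE 0.96, adjusted p = 0.000704) and Crhr2 at 3.02 (SE 1.12, adjusted p = 0.0178) above non-neuronal cells on the log2 scale.

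Neurons were deeper than non-neuronal cells, with medians of 3221 and 1113.5 UMIs. Shares of cells were therefore also compared after thinning each cell to 1000 UMIs, which left out 343 neurons and 625 non-neuronal cells. At that depth 8.90% of neurons and 0.207% of non-neuronal cells had a Crh UMI, and 0.735% against 0.0633% had a Crhr1 UMI. The share was higher in neurons in 4 of 4 libraries for each of the 4 genes, and an exact permutation of signs over libraries (two-sided) gave the smallest p that its 16 sign assignments allow, which is above 0.05. The small shares in non-neuronal cells were not read as expression, and the part of free RNA in them was not tested. Among glia themselves, none of the 4 genes passed the filter on low counts in any class.

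**Figure D1:**
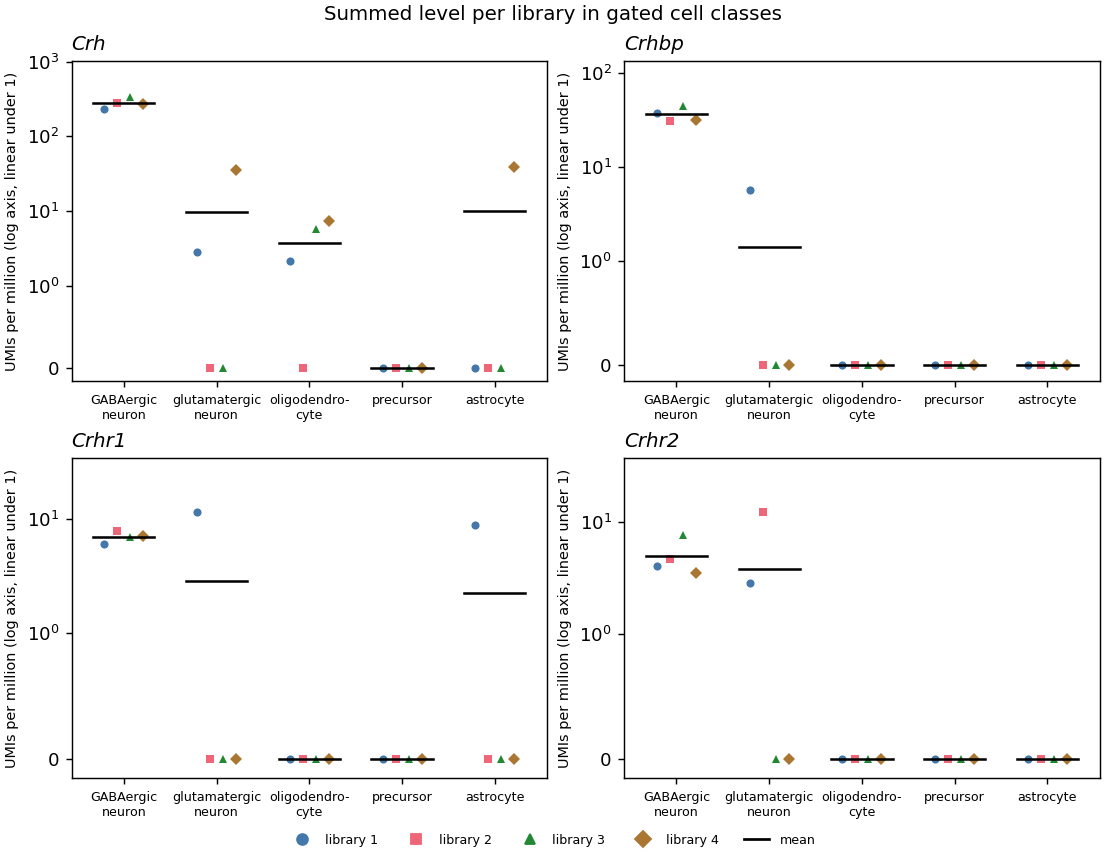
Level of Crh, Crhbp, Crhr1 and Crhr2 in GABAergic and glutamatergic neurons, oligodendrocytes, oligodendrocyte precursors and astrocytes. The vertical axes give CPM of summed UMIs on a scale that is linear near 0 and logarithmic above, each point is 1 of 4 libraries and each bar the mean. GABAergic neurons had UMIs of every gene in every library, with Crh at 229 to 339 CPM.

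Within neurons, Crh was largely a GABAergic transcript. It stood at 229, 279, 339 and 273 CPM in GABAergic neurons and at 2.84, 0, 0 and 35.3 CPM in glutamatergic neurons, which had 3 UMIs in 100 cells. The difference was 5.49 on the log2 scale (SE 0.41, adjusted p = 7.32e-38 in edgeR and 0.000356 in DESeq2), and it was 4.81 without library 1 and 6.89 without library 4. Here 2.93% of all tested genes were called. Crhbp had 37.9, 31.3, 45.0 and 31.6 CPM in GABAergic neurons against 5.68, 0, 0 and 0 CPM, or 2 UMIs, in glutamatergic ones. Its pooled ratio was 9.74 (2.67 to 80.7), and its log2 difference of 3.31 (SE 0.74) had an adjusted p of 0.000471 in edgeR. That call was not made by DESeq2 (3.19, adjusted p = 0.0716), nor by edgeR without library 1 (8.02, adjusted p = 0.0739), where glutamatergic neurons had 0 UMIs and the fitted value is no bound.

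For the receptors no difference between the transmitter classes could be resolved at this depth. The 100 glutamatergic neurons held 4 Crhr1 UMIs and 2 Crhr2 UMIs, against 61 and 42 in the 2294 GABAergic neurons. The pooled ratio was 0.908 for Crhr1 (0.337 to 3.44) and 1.25 for Crhr2 (0.325 to 10.7). Both intervals include equality and also severalfold differences.

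The genes differed in how their UMIs were spread over GABAergic neurons. Crh was found in 299 of 2294 cells (13.0%; 11.7 to 14.5%), and the share was 13.3, 13.2, 11.9 and 13.3% by library. Of these cells 69 had 1 UMI, 144 had 2 to 9 and 86 had at least 10. Those 86 cells, 3.75% of GABAergic neurons, held 70.6% of its UMIs, and the highest cell had 67. So a Crh level summed over a group rests largely on a few cells of high content.

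Crhbp was found in 133 cells (5.80%; 4.88 to 6.83%), of which 75 had 1 UMI and 5 had at least 10, with a highest value of 26. Crhr1 was found in 59 cells (2.57%), 57 of them with a single UMI, and Crhr2 in 35 (1.53%), 31 with a single UMI and none above 3. The receptor counts therefore give no grade of expression, and the part of free RNA in single UMIs of neurons was not tested. Over all libraries, cells with a UMI of a member were also deeper than those without one. Median depths were 4462 and 3126 UMIs for Crh, 4191 and 3261 for Crhbp, 5456 and 3276 for Crhr1, and 3827 and 3324 for Crhr2. For Crhr2 the order was the reverse in library 1 (4278 and 4330) and library 4 (2221 and 2574).

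**Figure D2:**
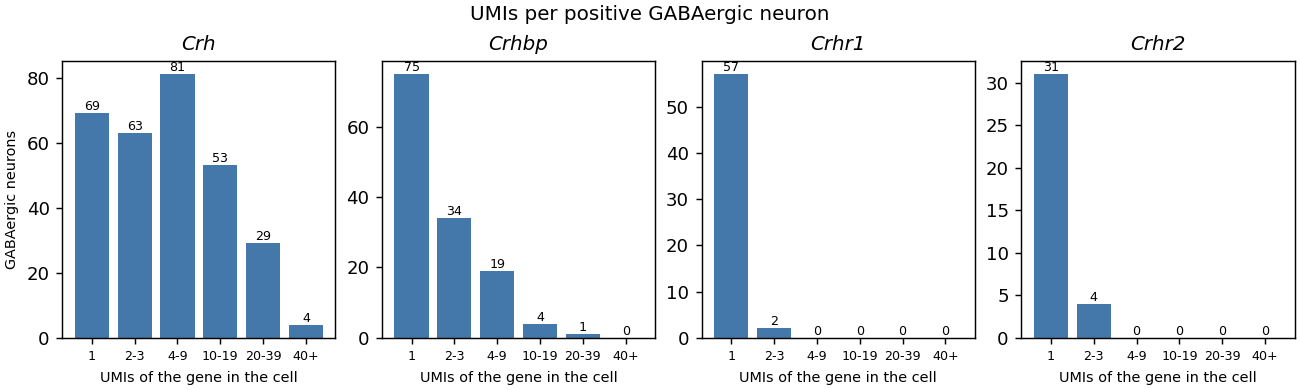
Number of GABAergic neurons, on the vertical axis, by the UMIs of each member they held, on the horizontal axis, over all 4 libraries. Crh has a long upper tail, with 86 cells at 10 or more UMIs, while 57 of 59 Crhr1 cells and 31 of 35 Crhr2 cells held 1.

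GABAergic neurons were next split by 28 marker genes that label neuropeptide, transcription factor and calcium-binding protein subtypes. A cell was positive for a neuropeptide at 2 or more UMIs and for another marker at 1 or more, and was compared with cells at 0 UMIs of that marker in the same library. The groups overlap, since one cell can be positive for several markers. There were enough cells for a test of 25 markers, and Crh was called higher with 6 and lower with 14.

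Among the 25 tested markers, Crh had its highest mean level with Tac2, the gene of neurokinin B. It stood at 650, 1128, 1934 and 845 CPM in Tac2-positive neurons of libraries 1 to 4 and at 163, 157, 241 and 203 CPM in Tac2-negative ones. The groups did not overlap. Tac2-positive neurons were 8.11% of GABAergic neurons and held 36.9% of Crh UMIs, with Crh found in 85 of 186 cells (45.7%). At 1000 UMIs per cell the share with Crh was 38.5% ± 8.76 (SD, n = 4), against 6.67% ± 0.769 in Tac2-negative neurons. The log2 difference was 2.47 (SE 0.12, adjusted p = 2.66e-16 in edgeR), where 2.28% of all tested genes were called.

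Neurons with Pdyn, the gene of the dynorphin precursor, had 379, 1121, 615 and 824 CPM of Crh, against a mean of 250 CPM ± 66.0 (SD, n = 4) without it. That is a log2 difference of 1.50 (SE 0.15, adjusted p = 4.55e-11 in edgeR), again without overlap, with 3.4% of genes called. Lhx8, a transcription factor of basal forebrain neurons, went with a smaller rise of 0.83 (SE 0.13, adjusted p = 2.17e-06 in edgeR), higher in 3 of 4 libraries. Its 142 positive cells had 469, 426, 311 and 529 CPM, against 204, 260, 341 and 253 CPM in negative cells. Library 3 went the other way, and 11.5% of all genes were called in that split.

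The other 3 rises were smaller, and each lost its call without 1 or more single libraries. They were Calb2 (calretinin; 0.64, SE 0.12), Tac1 (the substance P precursor; 0.63, SE 0.13) and Nts (neurotensin; 0.49, SE 0.10). Without library 1 the Calb2 difference was 0.29, without library 2 or 3 the Tac1 difference was 0.41 or 0.54, and without library 2 the Nts difference was 0.30, none of them past the threshold in edgeR. DESeq2 called the Tac1 difference (adjusted p = 0.0218) but not those of Nts (0.191) or Calb2 (0.661). The shares of all genes called were 6.51% with Calb2, 2.02% with Tac1 and 1.93% with Nts.

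At the other end, neurons with Cck (cholecystokinin) held little Crh. Its level was 2.53, 20.4, 64.9 and 42.3 CPM in 135 positive neurons and 319 CPM ± 58.8 (SD, n = 4) in negative ones. The log2 difference of -3.48 (SE 0.25, adjusted p = 2.30e-15 in edgeR) was the lowest of the 25 splits, and 4.28% of genes were called. Without library 1 it was -2.83 and without library 3 -4.35. Neurons with Six3, a homeobox factor gene, were more numerous, 463 cells or 20.2% of GABAergic neurons. They held 4.31% of the Crh UMIs, at 64.2, 62.8, 35.1 and 38.5 CPM, which was lower by -2.60 (SE 0.12, adjusted p = 6.26e-76 in edgeR) with 5.62% of genes called.

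Crh was also lower with Gal (galanin; -1.74, SE 0.23), Nr2f2 (the nuclear receptor COUP-TFII; -1.65, SE 0.11), Cartpt (-1.16, SE 0.12), Foxp2 (-1.01, SE 0.12), Ppp1r1b (DARPP-32; -0.84, SE 0.16) and Penk (proenkephalin; -0.69, SE 0.09). Each was lower in 4 of 4 libraries and was called by both edgeR and DESeq2. The shares of all genes called in these splits were 2.1% with Gal, 6.87% with Nr2f2, 4.16% with Cartpt, 2.44% with Foxp2, 18.9% with Ppp1r1b and 7.06% with Penk. Calls by edgeR alone were made for Slc17a8 (-2.26), Sst (-1.98), Prkcd (-1.79), Npy (-1.39), Zic1 (-1.19) and Satb1 (-0.68). The DESeq2 adjusted p for these lay between 0.0536 (Sst) and 0.815 (Npy), and the Satb1 call was lost without library 3 (-0.41). Without library 1 the Slc17a8 value was -3.21, that of Prkcd -2.50 and that of Zic1 -1.80, and without library 2 that of Sst was -2.73. Between Crh and Pnoc, Calb1, Tshz1, Esr1 or Ebf1 no difference was called, with log2 values from -0.33 to -0.13. For Calb1, edgeR called a difference of -0.62 without library 2.

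Shares of genes called in the remaining splits were 4.98% with Slc17a8, 1.46% with Sst, 7.88% with Prkcd, 2.88% with Npy, 4.86% with Zic1 and 1.65% with Satb1. They were 2.42% with Pnoc, 2.51% with Calb1, 0.331% with Tshz1, 1.2% with Esr1 and 2.76% with Ebf1. The markers were picked to label subtypes, with earlier results of these data known, and the groups share cells. The calls for Crh in 20 and for Crhbp in 19 of 25 splits are a description beside these shares of all genes. DESeq2 also made 4 of the 6 higher and 8 of the 14 lower calls for Crh. For Crhbp it made 2 of the 4 higher and 6 of the 15 lower calls.

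Ordered by mean level, Crh ran from 1139 CPM ± 565 (SD, n = 4) in Tac2-positive neurons through Pdyn (735), Lhx8 (434), Tac1 (397) and Nts (371) down to Six3 (50.2) and Cck (32.5). No pair of neighbours in that order differed by more than the spread of their difference over libraries. Among markers with too few cells for a test, 9 of 11 Vip-positive neurons held 183 Crh UMIs, and 15 of 24 Wif1-positive neurons held 159. Vip encodes vasoactive intestinal peptide and Wif1 a secreted Wnt inhibitor. Their pooled Crh levels were 3720 and 1455 CPM, against 901 CPM in Tac2-positive neurons pooled in the same way. These 11 and 24 cells carried 7.59% and 6.59% of Crh UMIs from 0.48% and 1.05% of GABAergic neurons.

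**Figure D3:**
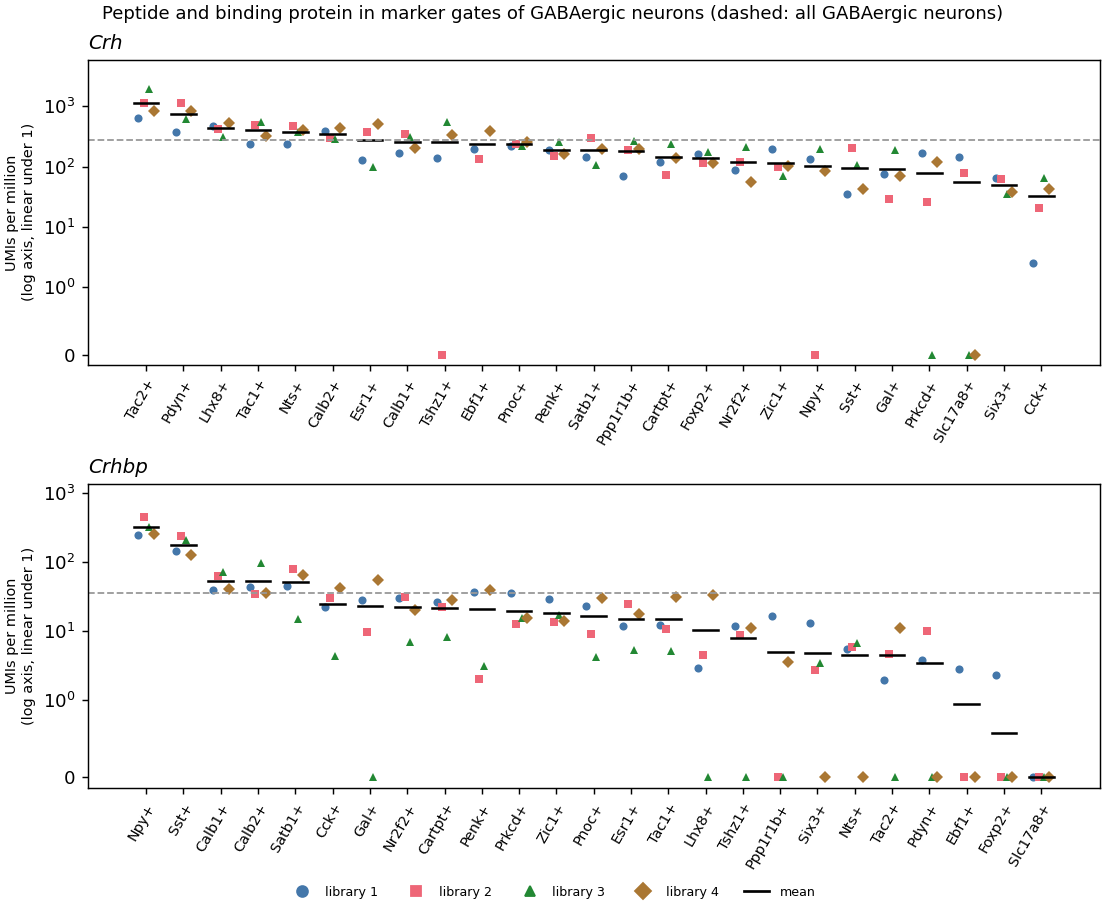
Level of Crh and Crhbp in GABAergic neurons positive for each of 25 markers, sorted by the mean. The axis gives CPM, points are libraries, and the dashed line is the mean of all GABAergic neurons (280 CPM for Crh, 36.4 CPM for Crhbp). Tac2-positive and Pdyn-positive neurons lie at the top for Crh, and Npy-positive and Sst-positive neurons for Crhbp.

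Crhbp, in the same splits, was most abundant with another pair of peptides. It was called higher with 4 of the 25 markers and lower with 15, and its level was highest with Npy (neuropeptide Y) and Sst (somatostatin), peptides with which Crh was at 102 CPM ± 81.3 and 96.2 CPM ± 77.6 (SD, n = 4). In Npy-positive neurons Crhbp stood at 247, 461, 320 and 256 CPM, against 16.7, 8.86, 29.3 and 11.2 CPM in Npy-negative ones, so that the groups lay far apart. The 158 Npy-positive cells were 6.89% of GABAergic neurons and held 56.9% of Crhbp UMIs, with a UMI in 57 cells (36.1%; 28.6 to 44.1%). At 1000 UMIs the share was 23.4% ± 6.53 against 1.12% ± 0.479 (SD, n = 4). The log2 difference was 4.27 (SE 0.22, adjusted p = 6.92e-38 in edgeR).

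In Sst-positive neurons Crhbp stood at 146, 241, 211 and 127 CPM, against 18.7, 13.4, 38.1 and 20.5 CPM in negative ones, a log2 difference of 3.08 (SE 0.22, adjusted p = 2.89e-23 in edgeR). In the order of mean levels, Npy was above Sst, and Sst above Calb1, by more than the spread of the difference and in 4 of 4 libraries. Calb1 (calbindin; 1.06, SE 0.22) and Calb2 (0.68, SE 0.21) were the other rises called by edgeR. DESeq2 gave an adjusted p of 0.999 for Calb1 and none for Calb2. Without library 2 or 3 the Calb1 difference was 0.71 or 0.83 and that of Calb2 was 0.79 or 0.30, all short of the threshold. The Calb1 difference was 1.69 without library 1.

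Crhbp was near absent from several subtypes. Slc17a8-positive neurons, which carry the vesicular transporter VGLUT3, had 0 UMIs in 118 cells, and the pooled level was at least 6.49-fold lower than in the rest, taken against 3 counts over the group. Foxp2-positive neurons had 1 UMI in 274 cells, a pooled ratio of 0.0226 (0.000571 to 0.127). Crhbp was also lower with Tac2 (-3.26, SE 0.50; 4 UMIs in 186 cells), Nts (-3.19, SE 0.42), Six3 (-2.73, SE 0.32) and Ppp1r1b (-2.38, SE 0.44). These 6 differences were called by edgeR and DESeq2, with every library lower and edgeR calls whichever library was left out. Their size moved, however. Without library 1 the value was -4.47 for Six3, -4.62 for Ppp1r1b and -2.52 for Tac2, and without library 4 it was -4.01 for Tac2.

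The remaining 9 falls in Crhbp were called by edgeR and each lost its call without at least 1 library. DESeq2 gave no adjusted p for Ebf1 and Tac1 and called none of the other 7. Without library 1 the Ebf1-positive neurons had 0 Crhbp UMIs, and the values were -3.29 for Pdyn, -2.52 for Tshz1, -1.47 for Lhx8, -1.38 for Pnoc, -1.30 for Esr1, -1.11 for Tac1 and -1.10 for Cartpt. Without library 3 the value for Nr2f2 was -0.41, for Cartpt -0.58, for Pnoc -0.86, for Tac1 -1.08, for Esr1 -1.22 and for Tshz1 -1.78. The calls for Tac1 (-1.27) and Pnoc (-1.01) were also lost without library 2, and that for Esr1 (-1.66) without library 4. Pdyn-positive neurons had 2 Crhbp UMIs in 94 cells, a pooled ratio of 0.0954 (0.0115 to 0.348), and Ebf1-positive neurons 1 UMI in 83 cells, a ratio of 0.0438 (0.00111 to 0.246). For Cck, Gal, Penk, Prkcd, Zic1 and Satb1 no difference was called, with log2 values from -0.94 to 0.48. For Penk, edgeR called a difference of -1.26 without library 1 and -0.96 without library 4. Among the untested markers, Pvalb-positive neurons held 16 Crhbp UMIs in 2 of 23 cells, nearly all in library 3.

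The receptors could be placed among these subtypes only roughly. Crhr1 was found at a low level in most of them. Its mean level was highest in Slc17a8-positive neurons, at 8.01, 17.9, 10.9 and 16.2 CPM, from 7 UMIs in 118 cells, and no neighbour in the order differed from it beyond the spread. Calb2-positive neurons had 8.14, 14.8, 9.65 and 12.8 CPM, or 29 UMIs, against 4.91, 4.58, 5.83 and 5.24 CPM in negative ones. The groups did not overlap, the pooled ratio was 2.10 (1.23 to 3.59), and a fit without the filter on low counts gave 1.07 (SE 0.41) with an edgeR adjusted p of 0.163. At 1000 UMIs per cell the shares were 0.946% ± 0.472 and 0.637% ± 0.128 (SD, n = 4).

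Few or no Crhr1 UMIs were found in some subtypes. Ppp1r1b-positive neurons, 12.8% of GABAergic neurons, held 1 of its 61 UMIs, a pooled ratio of 0.114 (0.00284 to 0.659). In the fit without the filter this was the single marker split with an adjusted p under 0.05 for Crhr1 (-3.03, SE 1.03, adjusted p = 0.034 in edgeR). With the filter, 18.9% of all tested genes were called in this split. The share without the filter is not given here, and that fit was not repeated with a library left out. The 102 Prkcd-positive neurons had 0 UMIs. There 3 counts over the group would be 6.51 CPM, close to the 7.12 CPM of Prkcd-negative neurons, so no lower level could be shown. In Calb1-positive neurons the pooled ratio was 0.422 (0.226 to 0.754), with an adjusted p of 0.154 in edgeR.

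Crhr2 had its highest mean levels where Crhbp did. It stood at 16.4, 6.53, 35.2 and 4.70 CPM in Sst-positive neurons and at 1.67, 4.67, 6.72 and 2.92 CPM in negative ones. In Npy-positive neurons it stood at 22.2, 10.7, 12.8 and 6.40 CPM, against 1.54, 4.43, 6.75 and 3.35 CPM. Every library was higher on the positive side in both, though the ranges overlapped. Pooled ratios were 3.84 (1.82 to 7.70) for Sst, from 13 UMIs in 9 cells, and 4.53 (1.96 to 9.62) for Npy, from 10 UMIs in 8 cells. Fits without the filter gave 2.05 (SE 0.67, adjusted p = 0.187) and 2.11 (SE 0.75, adjusted p = 0.192) in edgeR, short of the threshold. Nts-positive neurons, 279 cells, had 0 Crhr2 UMIs, a pooled level at least 2.49-fold lower than in the rest by the limit of 3 counts over the group. UMIs were also 0 in Pdyn-positive, Gal-positive, Slc17a8-positive and Ebf1-positive neurons, where that limit was near or above the level of the rest.

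**Figure D4:**
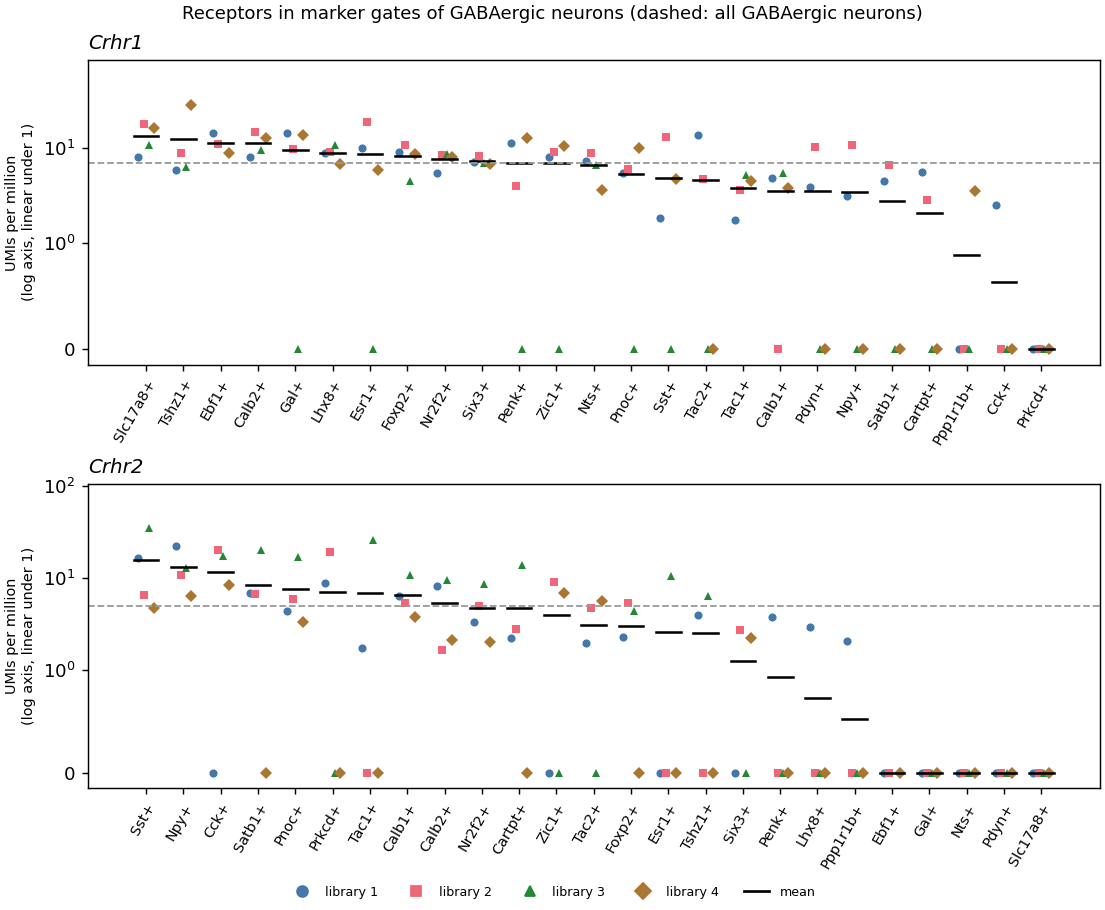
Level of Crhr1 and Crhr2 in GABAergic neurons positive for each of 25 markers, sorted by the mean. The axis gives CPM, points are libraries and the dashed line is the mean of all GABAergic neurons (6.94 CPM for Crhr1, 4.98 CPM for Crhr2). Library values are widely scattered, and many groups hold under 10 receptor UMIs.

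Most GABAergic neurons held a UMI of at most 1 of the 4 genes. Of 2294 GABAergic neurons, 1809 (78.9%) had a UMI of 0 members, 444 (19.4%) of 1 and 41 (1.79%) of 2, and 0 cells had 3 or more. Among pairs, Crh and Crhbp met in 13 cells, Crh and Crhr1 in 13, Crhbp and Crhr2 in 10, Crh and Crhr2 in 3, Crhbp and Crhr1 in 2, and both receptors in 0. Either receptor was found in 94 cells (4.10%), and in 16 of the 299 Crh-positive ones (5.35%).

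Crhr2 was found in 10 of 133 Crhbp-positive neurons (7.52%; 3.66 to 13.4%) and in 25 of 2161 Crhbp-negative ones (1.16%). At 1000 UMIs per cell its share was 1.37, 3.83, 4.26 and 1.13% by library in Crhbp-positive neurons and 0.382, 0.354, 0.676 and 0.510% in negative ones. Positive cells were higher in 4 of 4 libraries, and the p of the exact permutation of signs was again the smallest it can give, above 0.05. In summed counts Crhr2 stood at 18.3, 16.2, 54.8 and 8.09 CPM in Crhbp-positive neurons and at 2.69, 3.91, 5.10 and 3.20 CPM in negative ones. The fit without the filter on low counts gave 2.47 (SE 0.68, edgeR adjusted p = 0.022), from 13 Crhr2 UMIs in 10 Crhbp-positive cells. With the filter, 2.87% of all tested genes were called in this split. The share without the filter is not given here, and that fit was not repeated with a library left out.

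Whether Crh and Crhr1 were detected together more or less often could not be decided by the exact permutation of signs. Over 4 libraries it cannot give a p under 0.05, so the shares are given as a description. Cells were split on their full counts, and only the gene measured in them was thinned. The raw share of Crhr1 was 4.35% in Crh-positive and 2.31% in Crh-negative neurons, while at 1000 UMIs per cell the shares were 0.697 and 0.721%, a difference of -0.0245 percentage points (SD 0.367, n = 4; higher in 2 of 4 libraries, exact permutation p = 1). In the reverse split at 1000 UMIs, Crh was found in 13.5% of Crhr1-positive and 9.22% of Crhr1-negative neurons, a difference of 4.30 percentage points (SD 3.35, n = 4; higher in 3 of 4 libraries, exact permutation p = 0.25). For Crhbp in Crh-positive and Crh-negative neurons the thinned shares were 1.59 and 2.88%, lower in 3 of 4 libraries (exact permutation p = 0.25). The receptors met in 0 of 59 Crhr1-positive neurons, which at 95% allows a share with a Crhr2 UMI of up to 6.06% and sets no limit on cells that express both. The share of Crhr2 in Crhr1-negative neurons was 1.57%, so a lack of overlap could not be shown at this depth.

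Crh-positive neurons, with at least 1 Crh UMI, were set against Crh-negative GABAergic neurons across all genes, in order to see what else the cells expressed. Vip and Tac2 rose most among peptide genes, and Npy and Sst were among those that fell. In all, 515 of 9086 genes (5.67%) were called, 238 higher and 277 lower. DESeq2 called 134, and 139 were called by edgeR when each positive cell was set against a negative cell of like depth.

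The 10 largest rises were Vip (4.85, SE 0.33), Kcnj5 (a G protein-gated potassium channel subunit; 3.43, SE 0.43), Pde11a (a cyclic nucleotide phosphodiesterase; 2.72, SE 0.21), Npbwr1 (a neuropeptide B and W receptor; 2.57, SE 0.42), Spink8 (2.51), Stk32a (2.39), Tac2 (2.16, SE 0.09), Sostdc1 (2.06), Maob (monoamine oxidase B; 1.94) and Adra1b (an alpha-1 adrenoceptor; 1.90). All 10 were also called by DESeq2, and the rule that named them asks for 1 direction in every library. Without library 2 or 3 the Vip value was 4.12 or 6.61, and without library 1 or 4 that of Spink8 was 3.66 or 1.83. Pde11a had 52.7, 73.0, 110 and 169 CPM in positive neurons against 12.1, 8.19, 13.2 and 23.8 CPM in negative ones. Stk32a had 62.5, 70.0, 76.4 and 70.2 CPM against 10.8, 19.5, 11.6 and 12.2 CPM. The groups did not overlap for either gene, while 124 of the 148 Vip UMIs in Crh-positive neurons lay in 8 cells that also held Tac2.

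The 10 largest falls included Npy (-3.17, SE 0.21), Nfib (-2.61, SE 0.30), Nfix (-2.46, SE 0.39) and Six3 (-2.15, SE 0.24), of which the last 3 encode transcription factors, and St18, a zinc finger factor gene with 3 UMIs in positive and 202 in negative neurons (pooled ratio 0.0729, 0.0149 to 0.216). These 5 were also called by DESeq2. The other 5 were called by edgeR only. They were Rnf207 with 3 UMIs in positive neurons (pooled ratio 0.127, 0.0258 to 0.380), Zic4 (-2.56), Drd1a (a dopamine receptor; -2.48), Slc17a8 (-2.20) and Six3os1 (-2.03). Without library 4 the calls for Zic4 (-1.97) and Six3os1 (-1.67) were lost. Npy had 211, 0, 25.5 and 14.0 CPM in positive neurons, and was at -5.76 without library 1 and -2.58 without library 4. Without library 1 the values were also lower for Nfib (-3.37), Six3 (-3.07), Zic4 (-3.90), Drd1a (-4.79) and Slc17a8 (-3.66), and Slc17a8 was at -1.59 without library 4. Six3os1 overlaps Six3 on the other strand and Zic4 overlaps Zic1, and the strand used in counting is not given in the sources used here, so that reads of each pair cannot be told apart. The same limit holds for other named genes with an overlap on the other strand. Among them are Rnf207 (with Icmt), Nfix (Lyl1) and, further below, Gnas (Nespas), Gnal (Mppe1) and Cox6a2 (Itgad).

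By function, of 13 other peptide genes tested 4 rose (Vip, Tac2, Pdyn by 1.15 and Nts by 0.62) and 7 fell (Npy, Avp, Sst, Gal, Cck, Penk and Pnoc), with a median of -0.43 on the log2 scale against 0.0057 over all genes tested. DESeq2 called Vip, Tac2, Pdyn and Npy among these. Calls in edgeR were lost for Avp without library 1 (-0.99), 2 (-0.94) or 3 (-1.61), for Penk without library 2 (-0.46) or 3 (-0.65), and for Pnoc without library 1 (-0.42), 2 (-0.42) or 3 (-0.32). Avp was higher in the positive neurons of library 4, and without that library the value was -4.32. Other peptide genes also disagreed in 1 library each. Nts was lower in the positive neurons of library 1 and Pdyn in those of library 3. Penk was higher in the positive neurons of library 1, and Cck and Gal in those of library 3. Of 9 genes of precursor processing, Pcsk1, a convertase that cuts peptide precursors, rose by 1.78 (SE 0.29), with 32.9, 51.7, 46.7 and 25.3 CPM in positive and 8.82 to 12.1 CPM in negative neurons. Pam, the enzyme that amidates peptides, fell by 0.57 (SE 0.10), and both were called by DESeq2. The list's median was -0.0055.

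Of 15 genes of cyclic AMP signalling, the pathway on which the receptors act, Gnas, the stimulatory G protein subunit, rose by 0.52 (SE 0.05; 4 of 4 libraries, also in DESeq2). Gnal (-0.32) and Prkacb (-0.34) fell in edgeR only, and the Gnal call was lost without library 1 (-0.38), 3 (-0.32) or 4 (-0.16). The list's median was -0.32. Of 9 receptors of other peptides, Npy2r rose (0.80, SE 0.16, also in DESeq2; 0.56 and not called without library 3) and Sstr1 fell (-1.63, edgeR only), with a median of -0.26. No gene of 4 for receptor desensitisation (median -0.20) or 6 of the glucocorticoid response (median 0.07) was called. Of the 3 related ligand genes Ucn, Ucn2 and Ucn3, 2 were among the listed genes of these data and 0 passed the filter.

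The other members in this split were Crhbp, with a log2 difference of -0.99 (SE 0.30, edgeR adjusted p = 0.0376), and the receptors, which did not pass the filter. Crhbp stood at 15.4 CPM ± 17.4 in Crh-positive and 40.8 CPM ± 7.62 (SD, n = 4) in Crh-negative neurons, lower in 3 of 4 libraries. DESeq2 gave -1.51 with an adjusted p of 0.134. In library 1 it was 41.1 against 37.2 CPM, the other way, and without that library the value was -2.60. The call was lost without library 2 (-0.82), 3 (-0.75) or 4 (-0.67). In edgeR it was also lost with negative cells of like depth (adjusted p = 0.0518), with positive cells at 2 UMIs or more (0.0896), with at least 800 genes per cell (0.0532) and over all gated neurons (0.0649). Summed markers of oligodendrocytes ranged from 16.5 to 42.4 CPM in Crh-positive and 25.8 to 58.7 CPM in Crh-negative neurons, and those of astrocytes from 37.8 to 152 and 76.2 to 138 CPM. Of 6 astrocyte markers 2 were at 0 in positive neurons and of 6 oligodendrocyte markers none was. In neurons without a UMI of any non-neuronal marker, a check added after the data were seen, 184 genes were called, and Crhbp was at -0.37, not called.

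Crh-positive neurons with Tac2 and those without it differed in the other genes they held, given here as a description. The 85 cells with both had 2473 CPM of Crh ± 873, and the 205 with Crh and 0 Tac2 UMIs had 1377 CPM ± 229 (SD, n = 4). Tac1 averaged 932 CPM in the first group and 88.4 CPM in the second, Pdyn 210 and 39.6 CPM, and Vip 386 and 9.50 CPM. These means rest on a minority of the 85 cells, with Tac1 found in 24, Pdyn in 27 and Vip in 8. Lhx8 was at 0 UMIs in all 85 cells with Tac2 and at 77.5 CPM in those without. The Lhx8-positive cells with Crh were thus not among these 85. Lhx8 was also scarce in the 101 Tac2-positive neurons with 0 Crh UMIs, where 5 cells held it.

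**Figure D5:**
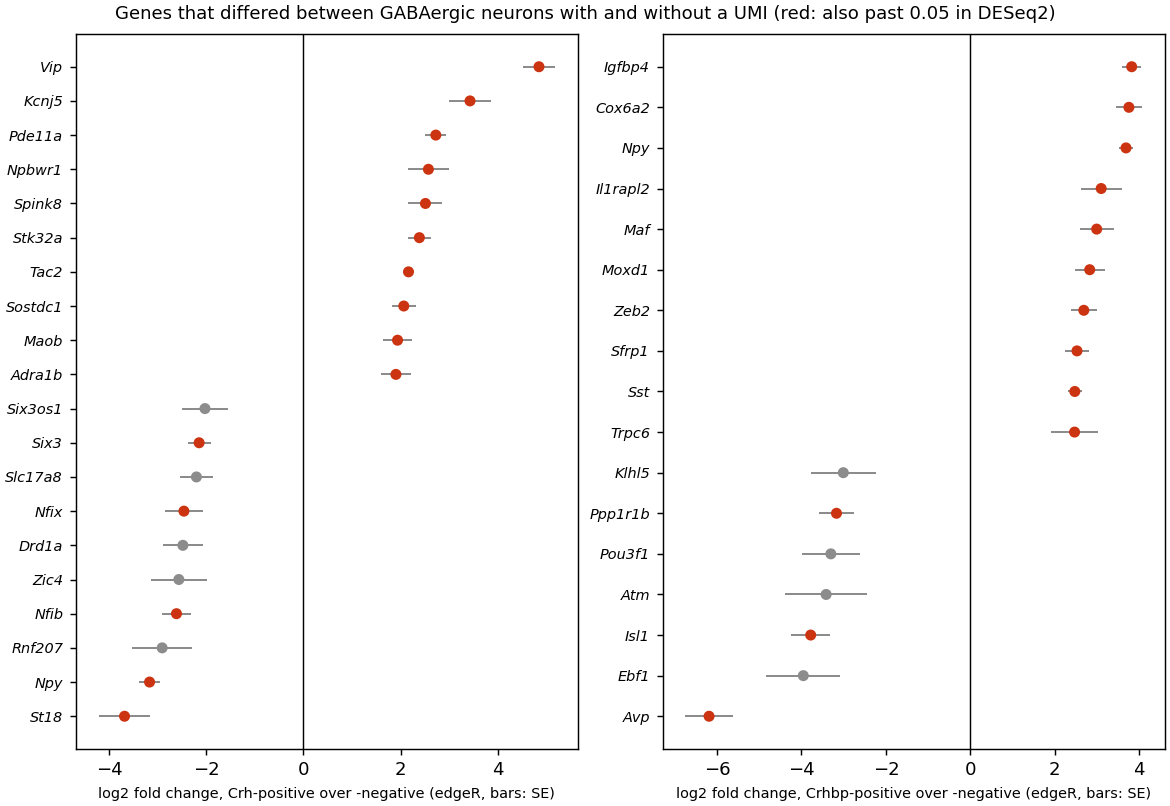
Genes that differed most between GABAergic neurons with and without a UMI of Crh (left) or Crhbp (right). The horizontal axis gives the log2 fold change from edgeR with its standard error, and red points also had an adjusted p under 0.05 in DESeq2. Genes with 0 UMIs in the positive cells are not drawn, and rises run from 4.85 for Vip in the Crh split and from 3.82 for Igfbp4 in the Crhbp split.

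Crhbp-positive neurons were compared in the same way. Npy, Sst and the transcription factor genes Maf and Zeb2 rose, and peptide genes such as Nts, Pdyn and Avp fell. In all 255 of 8881 genes (2.87%) were called, 140 higher and 115 lower, and DESeq2 called 117. With negative cells of like depth 66 genes were called, and in neurons without a UMI of any non-neuronal marker 96 were.

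The 10 largest rises were Igfbp4 (an insulin-like growth factor binding protein; 3.82, SE 0.22), Cox6a2 (a mitochondrial oxidase subunit; 3.76, SE 0.31), Npy (3.69, SE 0.18), Il1rapl2 (3.10), Maf (2.99) and Zeb2 (2.69), both transcription factor genes, Moxd1 (2.83), Sfrp1 (a secreted Wnt modulator; 2.53), Sst (2.47) and Trpc6 (2.47). All were called by both tools, under the same rule on direction, and the Trpc6 call was lost without library 2 (1.90). The Il1rapl2 value was 3.78 without library 1. Cox6a2 had 107, 162, 247 and 105 CPM in positive and 11.7, 7.81, 12.4 and 9.08 CPM in negative neurons. Igfbp4 had 281, 364, 1178 and 194 CPM against 15.3, 30.1, 43.0 and 40.6 CPM. Both separated the groups in every library, with library 3 highest.

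Among the falls, Slc17a8 had 0 UMIs in positive and 479 in negative neurons, and Avp (vasopressin) 1 and 960, a pooled ratio of 0.0135 (0.000341 to 0.0753). Isl1, a homeobox factor gene, fell by 3.78 (SE 0.46) and Ppp1r1b by 3.17 (SE 0.41). These 4 were called by both tools. The values without library 1 were -4.65 for Isl1 and -5.12 for Ppp1r1b. Tnnt2 and A730046J19Rik, with 0 UMIs in positive neurons against 196 and 172, and Ebf1 (1 UMI against 207), Atm (1 against 149), Pou3f1 (2 against 272) and Klhl5 (2 against 215) were called by edgeR only. All 6 of these edgeR calls were lost without library 1, where Atm was at -2.47, Pou3f1 at -3.47 and Klhl5 at -1.86 and the other 3 had 0 UMIs in positive neurons. The Atm call was also lost without library 3 (-3.24) or 4 (-3.15), and that of A730046J19Rik without library 2.

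Of 12 other peptide genes tested, 4 rose (Npy, Sst, Cartpt by 1.09 and Cck by 1.07) and 7 fell (Nts by 2.84, Pdyn, Avp, Gal, Tac2, Penk and Tac1), with a median of -1.10 against -0.02 over all genes. Of the falls, DESeq2 called those of Nts, Pdyn and Avp, and with at most 5% mitochondrial UMIs the Cartpt value was -0.15. The marker splits of the same pairs ran the other way, since Crhbp was lower in Cartpt-positive neurons in 4 of 4 libraries (-0.95) and was at -0.87 in Cck-positive ones, not called. The Cck call was made by edgeR alone and was lost without library 1 (0.73) or 2 (0.84), and that of Tac1 without library 1 (-0.59), 3 (-0.58) or 4 (-0.60). Cck was lower in the positive neurons of library 3, and Tac1 was higher in those of library 2. Of 9 genes of precursor processing, 3 rose, Pam (0.76, SE 0.11), the granin Scg2 (0.45, SE 0.08) and the granin Chga (0.69, SE 0.12), each in 4 of 4 libraries and in both tools, with a list median of 0.30. Pam, which was lower in Crh-positive neurons, thus had 498, 671, 521 and 372 CPM in Crhbp-positive neurons against 287, 352, 291 and 281 CPM. With negative cells of like depth the Chga (0.58) and Scg2 (0.44) differences were not called.

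Of 15 cyclic AMP genes, Adcy1 rose (1.50) and Gnal fell (-0.56), with a median of -0.0037. Of 4 desensitisation genes Adrbk2 rose (1.09; median 0.23), and of 12 other peptide receptors Tacr1 rose (1.42; median -0.0037). These 4 calls were made by edgeR only, and each was lost without at least 1 library: without library 1 the values were 1.72, -0.66, 1.07 and 1.42, and without library 2 they were 1.07, -0.52, 1.10 and 1.35. The Gnal call was also lost without library 3 (-0.50) or 4 (-0.56), the Adcy1 (1.42) and Adrbk2 (0.91) calls without library 3, and the Tacr1 call without library 4 (1.38). Of 6 glucocorticoid genes none was called (median 0.38).

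Crh itself was lower in Crhbp-positive neurons in 4 of 4 libraries (-1.46, SE 0.27, edgeR adjusted p = 0.000592; -2.22 without library 2), but DESeq2 gave -2.32 with an adjusted p of 0.387. Summed oligodendrocyte markers ranged from 16.2 to 61.1 CPM in Crhbp-positive and 20.6 to 56.2 CPM in negative neurons, and mural markers from 8.09 to 48.9 and 0.534 to 5.83 CPM, with 2 of 6 mural markers at 0 in positive neurons. The part of these non-neuronal transcripts in the calls was not tested beyond the count of 96 genes above.

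For Crhr1 the split rested on 59 cells, and few genes were called. There were 21 of 8744 (0.24%), 5 higher and 16 lower, of which DESeq2 called 3. When negative cells were matched on depth, 1 gene was called. The clearest fall was Cartpt (cocaine- and amphetamine-regulated transcript), with 88.9, 97.8, 0 and 29.0 CPM in Crhr1-positive neurons against 661, 524, 530 and 447 CPM in negative ones (-3.21, SE 0.23, adjusted p = 4.17e-25 in edgeR and 0.00389 in DESeq2). Npy (-4.42, SE 0.29) and Sst (-2.98, SE 0.26) also fell, in edgeR only. Sst was higher in the positive neurons of library 2 (522 against 434 CPM) and the groups overlapped. Without library 2 the values were -5.81 for Npy and -5.40 for Sst, and Sst was at -2.16 without library 1 and -2.37 without library 4. Ppp1r1b had 3 UMIs in Crhr1-positive neurons against 851, a pooled ratio of 0.0824 (0.0169 to 0.241).

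Arpp21, a phosphoprotein gene, fell by 1.23 (SE 0.16) and was called by both tools, but with negative cells of like depth its difference was -0.10. Prkcd and Fam159b had 0 UMIs in positive neurons, against 264 and 301 in negative ones, and were called by edgeR only. The Fam159b call was lost without library 1, 2 or 4 and the Prkcd call without any 1 of the 4. The rises named by the rule were Prim2 (2.36, SE 0.60), Slc17a8 (1.22, SE 0.29) and Aldoc (1.09, SE 0.18), in edgeR only, and each was lost without library 1 (2.45, 1.31 and 0.62). Prim2 was also lost without library 2 (2.23), 3 (2.29) or 4 (2.47), and Slc17a8 without library 2 (0.93) or 4 (1.18). Among the lists 0 of 14 cyclic AMP genes (median -0.11), 0 of 4 desensitisation genes (median -0.01), 0 of 5 glucocorticoid genes (median -0.06) and 0 of 9 other peptide receptors (median 0.06) were called, where the median over all genes was -0.04. Of 9 processing genes Scg2 fell by 0.48, called by edgeR alone and lost with each library left out (-0.61, -0.49, -0.38 and -0.48 without libraries 1 to 4; list median -0.19). Of 12 other peptides 4 fell (Npy, Sst, Cartpt and Tac1) and Gal rose, with a median of -0.60. Tac1 fell by 1.00 in edgeR only, and the call was lost without library 1 (-0.22), 3 (-0.87) or 4 (-0.87), and without library 2 the value was -2.41. Gal had 3147 CPM in library 2 and was lower in the positive neurons of the other 3 libraries, and its call was lost without library 2 (-1.15) or 4 (1.21), while it was at 1.93 without library 1. Crh, the ligand, was at 0.31 (SE 0.17, adjusted p = 0.885) and Crhbp at -1.83 (SE 0.65, adjusted p = 0.414) in this edgeR comparison. Crhr2-positive neurons were too few for such a split.

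The level of each member over 33 groups of cells was finally set beside that of every gene with at least 100 UMIs. The groups were non-neuronal classes, glutamatergic neurons and positive GABAergic groups, each with at least 10 cells in a library. Microglia and fibroblasts reached that number in no library, and mural cells entered from library 1 only. These correlations are a description across groups that share libraries and cells. The groups include glia and glutamatergic neurons, which held few UMIs of Crh or Crhbp. Likeness over the GABAergic groups alone was not tested. The genes most like Crh were Rgs8 (Pearson r = 0.88), Isl1 (0.87), Dlx6 (0.87), Arhgap36 (0.85) and Tmtc4 (0.84). Those most like Crhbp were Cox6a2 (0.83), Dlx1 (0.80), Moxd1 (0.79), Dlx2 (0.78) and Tacr1 (0.75). For Crhr1 they were Gprin3 (0.78), Samd5 (0.76), Gm5607 (0.76), Cntnap5b (0.76) and BC052040 (0.75), and for Crhr2 Sncg (0.81), Rai2 (0.77), Wdfy3 (0.77), Pcdh18 (0.73) and Plxna1 (0.72). No gene was shared between the lists of the 4 members, and the values for the receptors rest on 69 and 45 UMIs.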

How the data were processed

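Each library was deposited by the authors as a table of raw UMI counts, with genes in rows and cell barcodes in columns, and no normalisation. Per the submitters' processing notes, bcl2fastq 2.18.0.12, STAR 2.4.2a, Picard 2.2.4 and the mm10/GRCm38 build were used. The annotation, the counting strand and the rule for choosing barcodes are not given in the sources used here. Library totals were 2640399 to 5652342 UMIs.

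Barcodes were kept with at least 400 genes and at most 10% mitochondrial UMIs. Doublets were called by Scrublet (scanpy 1.11.5) with the expected rate set to 0.05, which removed 58 of 4239 cells (1.37%). A cell entered the class whose marker list had at least 2 times the UMIs of the next list, with a minimum of 3 UMIs for neurons and 2 for other classes. A neuron with more UMIs of Gad1, Gad2 and Slc32a1 than of Slc17a6 and Slc17a7 was GABAergic, and the reverse glutamatergic.

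For each class, the counts of its cells were added up within a library. The sums were compared by the quasi-likelihood test of edgeR 4.0.16 (R 4.3.3) after TMM scaling and filterByExpr. Library was a block, since each library gives both sums of a comparison. The test used Benjamini-Hochberg adjustment over all genes of a comparison and a threshold of 0.05. Each side needed 10 cells in at least 3 libraries. DESeq2 1.42.0, other cell filters, other gates, depth-matched cells and each library left out in turn were alternatives. Cells were not replicates. CPM values are sums scaled to 1000000 UMIs. A count of 0 was bounded by 3 counts. Intervals are 95% (Clopper-Pearson), for counting error only. Those of the ratios of neurons to non-neuronal cells are instead Poisson limits on the non-neuronal count alone.

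Genes named in a split are the 10 largest rises and falls with an adjusted p under 0.05, at least 20 UMIs and the same direction in every library, and called genes of the lists. Likeness used log2(CPM + 1). Gene names were matched to GENCODE vM21, in which 18830 of 20136 (93.5%) were found. The members, markers and lists were chosen with earlier results of these data known. The tests were checked on simulated counts with a single common spread for all genes, so the check does not cover genes that vary more between libraries. Analyses used Python 3.11.15, numpy 2.4.6, pandas 2.3.3 and scipy 1.17.1.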

Additional observations from a re-analysis of the deposited data

Results flagged for a closer look

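In Calb2-positive GABAergic neurons, library 3 stood apart from the others in Crhbp, at 96.5 CPM against 34.6, 36.2 and 44.0 CPM. It was the 1 of 42 sets of 4 library values in which a library lay so far out, where chance would give about 2.1. Without that library the Calb2 difference in Crhbp was 0.30 on the log2 scale and was not called by edgeR.

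Crh had 14 UMIs in 7 of the 112 neurons with no transmitter call, which entered no comparison between transmitter classes. Barcodes with under 400 genes, which were left out of every comparison, numbered 5652 and held 1225002 UMIs. Among these were 134 UMIs of Crh in 100 barcodes, 14 of Crhbp in 13 and 5 of Crhr1 in 5, which corresponds to 109, 11.4 and 4.08 CPM. Crhr2 had 0 UMIs there.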

How the results depend on the processing

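Counts of calls moved more than single directions did, and the cause was not tested. Crh was called higher with 3 markers without the replicate block (library as a block was the planned design) and with 4 to 6 with a library left out, and lower with 8 in DESeq2 and 13 to 15 with a library left out. Crhbp was called higher with 2 markers in DESeq2, 2 without the replicate block, 2 with at most 5% mitochondrial UMIs and 2 to 4 with a library left out, and lower with 6, with 9 without the block and with 8 to 15. The Crhbp difference between transmitter classes was 3.19 in DESeq2 and 3.12 to 8.02 with a library left out. Genes called in the Crh split numbered 134 in DESeq2, 56 without the replicate block, 139 with depth-matched cells, 184 without non-neuronal marker UMIs (added after the data were seen), 284 at 5% mitochondrial UMIs and 284 to 381 with a library left out. For Crhbp they were 117, 103, 66, 96 and 122 to 192, with no such change at 5% mitochondrial UMIs. For Crhr1 they were 3 in DESeq2, 6 without the block, 1 with matched cells, 13 with DESeq2 size factors, 62 without the filter and 11 to 17. Directions reversed for Crh with Tshz1 (-0.67 to 0.073 with a library left out), Ebf1 (0.50 at 5% mitochondrial UMIs; -0.45 to 0.086), Calb1 (0.017 at 5% mitochondrial UMIs) and Esr1 (0.29 with all markers at 2 UMIs; -0.67 to 0.16), Cartpt in Crhbp-positive neurons (-0.15 at 5% mitochondrial UMIs), Crh in Crhr1-positive neurons (-0.37 with matched cells), Gal in Crhr1-positive neurons (-0.81 in DESeq2; -1.15 to 1.93), and the share of Crhr1 in Crh-positive minus Crh-negative neurons (1.86 without thinning; -0.19 to 0.081). Of the values for single genes under an alternative, 2006 kept their direction and side of the threshold, 356 lost their call, 6 gained one and 12 reversed. With 69 and 45 UMIs, the receptors were limited by depth.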
